A study of Mus musculus with 12 samples.

Results

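The subject is the apolipoprotein gene cluster of mouse chromosome 7, made up of Apoe, Apoc1, Apoc4 and Apoc2. Its members were chosen as the rows of the deposited count table whose Ensembl ID maps to these symbols, and all 4 were found among 39017 rows. The cluster was selected on the difference in its counts between the 2 genotypes, which was already known. Levels and fold changes of the 4 genes between genotypes are therefore given as a description. Their calls in the fit of all genes are not read as a test.

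The libraries hold RNA of microglia of the spinal cord, from female mice of the C57BL/6 strain in EAE (experimental autoimmune encephalomyelitis), in which immune cells attack myelin. The genotypes are labelled Kdm6a cKO (conditional knockout, replicates 1 to 6) and wildtype (WT, replicates 7 to 12), with 6 libraries each. Kdm6a is an X-linked histone H3 demethylase. All 12 libraries, WT included, are labelled as microglial RNA of Tmem119-Cre:RiboTag mice, in which cells that have expressed Cre carry a tagged ribosomal protein so that their ribosome-bound RNA can be pulled down from tissue. Tmem119 is expressed by microglia, so RNA of other cells should be present only as far as it was carried over or as Cre acted elsewhere. The labels give no age, no day or stage of disease, no further detail of the Kdm6a allele and nothing on which libraries share an animal, so p-values measure only the spread between these libraries, which may be technical.

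Library totals ran from 19040115 to 26296071 counts. The 10 microglia markers were present at a summed 25453 to 31051 CPM in cKO and 25631 to 28919 CPM in WT, where CPM is counts per 1000000 after TMM scaling of the library total. Kdm6a itself stood at 3.24, 4.50, 2.61, 3.02, 1.59 and 1.78 CPM in cKO 1 to 6. It stood at 3.58, 3.71, 3.35, 5.51, 6.19 and 4.87 CPM in WT 7 to 12. Its log2 fold change was -0.70 ± 0.25 (SE, edgeR adjusted p = 0.117). An exact permutation test of the CPM of this gene alone gave p = 0.0281, without adjustment. By this gene the library labelled cKO 2 could not be told from WT, since its value is inside the range of WT, and results are also given without it. The library labelled cKO 1 (69 counts) lay just below WT 9 (65 counts), the lowest of WT, and was not clearly apart either. The libraries cKO 1, cKO 2 and cKO 4, which had the highest Kdm6a values of cKO, stood apart in markers of neurons and other non-microglial cells. The values without these libraries stand beside the fold changes below.

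Apolipoproteins are the protein part of lipoprotein particles, which carry cholesterol and other lipids between cells. Apoe binds lipoprotein receptors on cells and is the main apolipoprotein of the central nervous system, where astrocytes and activated microglia make it. The Apoc proteins are small, exchangeable apolipoproteins that tune lipoprotein lipase and receptor uptake. In macrophages the 4 genes are known to be switched on together by LXR, a nuclear receptor for oxysterols, through shared enhancers that lie outside the promoters.

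The 4 genes lie on the minus strand of chromosome 7 (mm10, GENCODE M21 annotation). Apoe spans 19696109 to 19699188, and Apoc1 follows it at 19689481 to 19692660, 3448 bases away. Apoc4 (19678083 to 19681479) lies 8001 bases beyond Apoc1, and Apoc2 (19671579 to 19677941) only 141 bases beyond Apoc4. The annotation also holds Gm44805, a read-through gene that overlaps both Apoc4 and Apoc2. It has no row in the count table, although genes without any counts have rows there. No reads are therefore seen to be counted for it in place of Apoc4 or Apoc2. The annotation that the authors counted with is not stated in the sources used here.

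Promoter windows of 3 of the 4 genes were available from RefSeq (GRCm38.p6, the build also called mm10), each with 250 bases before and 50 bases from the transcription start. They are shown because all 4 genes were lower in cKO and because the core motif of nuclear receptors, AGGTCA or its variant GGGTCA, can be looked for in them. Capitals mark these motifs on either strand, and all windows are read 5′ to 3′ on the minus strand. The first is chr7:19699139-19699438, the second chr7:19681411-19681710 and the third chr7:19677892-19678191.
Apoe: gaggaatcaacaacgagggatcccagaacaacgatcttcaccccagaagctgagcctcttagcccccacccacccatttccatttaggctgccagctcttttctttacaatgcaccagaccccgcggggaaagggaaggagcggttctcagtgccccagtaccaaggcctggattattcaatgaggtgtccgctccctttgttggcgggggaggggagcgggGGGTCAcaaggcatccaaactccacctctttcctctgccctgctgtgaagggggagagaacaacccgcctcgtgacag
Apoc4: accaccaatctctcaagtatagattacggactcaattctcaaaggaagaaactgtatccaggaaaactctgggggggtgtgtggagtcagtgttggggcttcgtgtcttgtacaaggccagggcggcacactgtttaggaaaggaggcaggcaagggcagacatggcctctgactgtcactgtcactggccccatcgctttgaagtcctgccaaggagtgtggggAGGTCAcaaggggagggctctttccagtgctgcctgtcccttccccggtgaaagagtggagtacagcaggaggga
Apoc2: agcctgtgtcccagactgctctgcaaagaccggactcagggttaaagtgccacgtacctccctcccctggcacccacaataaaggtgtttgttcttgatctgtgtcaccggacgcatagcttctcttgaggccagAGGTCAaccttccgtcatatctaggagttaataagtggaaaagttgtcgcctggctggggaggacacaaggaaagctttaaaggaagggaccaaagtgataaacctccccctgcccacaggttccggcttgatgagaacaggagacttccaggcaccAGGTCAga
Apoc1 had no window to print.

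The Apoe window held 1 GGGTCA, 28 bases before the start, and the Apoc4 window 1 AGGTCA, 25 bases before the start. Apoc2 held AGGTCA at 2 places, 115 bases before and 42 bases after the start. On either strand, AGGTCA was present in 16.04% and GGGTCA in 13.5% of 27025 promoter windows of the same length, 1 per gene. The share of windows holding either motif was not computed, so their presence in all 3 windows has no background. Other motifs were searched too. GGGCGG was present in the Apoc4 window and in 35.9% of all windows. GAGGAA stood at 2 places in the Apoe window and was present in 28.3% of all windows. TATAAA was in none of the 3, nor was CACGTG. Binding of LXR to these windows was not tested. The longest run of letters shared by Apoe and Apoc4 was GGTCACAAGG, which overlaps the marked motif in both and lies 27 and 24 bases before the start. This run was present in 30 of the 27025 windows (0.111%). It was picked out after the sequences had been seen, and it shows shared letters, not a bound site. Neither of these windows shared a run longer than 9 bases with Apoc2.

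All 4 genes were lower in every cKO library than in any WT library. Apoe stood at 42851, 7009, 66779, 3826, 51804 and 27152 CPM in cKO 1 to 6, against 172409, 127005, 132914, 109808, 88404 and 132876 CPM in WT 7 to 12. Within cKO, the libraries labelled cKO 2 and cKO 4 lay far below the other 4, and the groups came closest between cKO 3 and WT 11. Apoe averaged 33237 ± 25109 CPM in cKO and 127236 ± 27987 CPM in WT (SD, n = 6 each), and its log2 fold change was -1.94 ± 0.55 (SE). It took 4.79%, 0.858%, 6.59%, 0.435%, 5.21% and 2.61% of all counts in cKO 1 to 6, and 8.36% to 15.9% in WT. By raw counts it was the most abundant of all genes in cKO 1, 3 and 5 and in each of the 6 WT libraries. It ranked 2 in cKO 6, 6 in cKO 2 and 20 in cKO 4, where the lysosomal protease gene Ctsd ranked 1.

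Apoc1, which hinders receptor uptake of lipoproteins and inhibits lipases, stood at 48.8, 4.46, 68.4, 3.92, 60.8 and 28.3 CPM in cKO 1 to 6. The 6 WT libraries, 7 to 12, had 274.9, 211.4, 194.7, 184.65, 186.8 and 335.5 CPM. The order of the cKO libraries was that of Apoe, from cKO 3 at the top to cKO 4 at the bottom. The means were 35.8 ± 27.96 CPM in cKO and 231 ± 61.1 CPM in WT, and the log2 fold change was -2.69 ± 0.60.

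Apoc4, a minor apolipoprotein of triglyceride-rich particles, was the member with the largest fold change. It stood at 9.26, 0.762, 11.6, 0.377, 9.59 and 4.50 CPM in cKO 1 to 6, against 91.4, 70.5, 108.5, 73.5, 87.2 and 114.4 CPM in WT 7 to 12. The lowest WT library was 6.06 times the highest cKO library. The log2 fold change was -3.93 ± 0.61, with means of 6.02 ± 4.83 CPM in cKO and 90.9 ± 17.9 CPM in WT. Raw counts were 10 to 245 in cKO and 1349 to 2220 in WT, so the lowest cKO values rest on few reads.

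Apoc2, the cofactor that lipoprotein lipase needs to work, stood at 21.1, 5.70, 27.3, 3.73, 44.2 and 25.9 CPM in cKO 1 to 6. The WT libraries, 7 to 12, had 122.7, 83.9, 114.2, 86.7, 108.2 and 125.1 CPM. Here the highest cKO library was cKO 5, not cKO 3, and cKO 2 and cKO 4 were again the lowest. The log2 fold change was -2.33 ± 0.46, with means of 21.3 ± 15.1 CPM in cKO and 106.8 ± 17.7 CPM in WT.

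**Figure D1:**
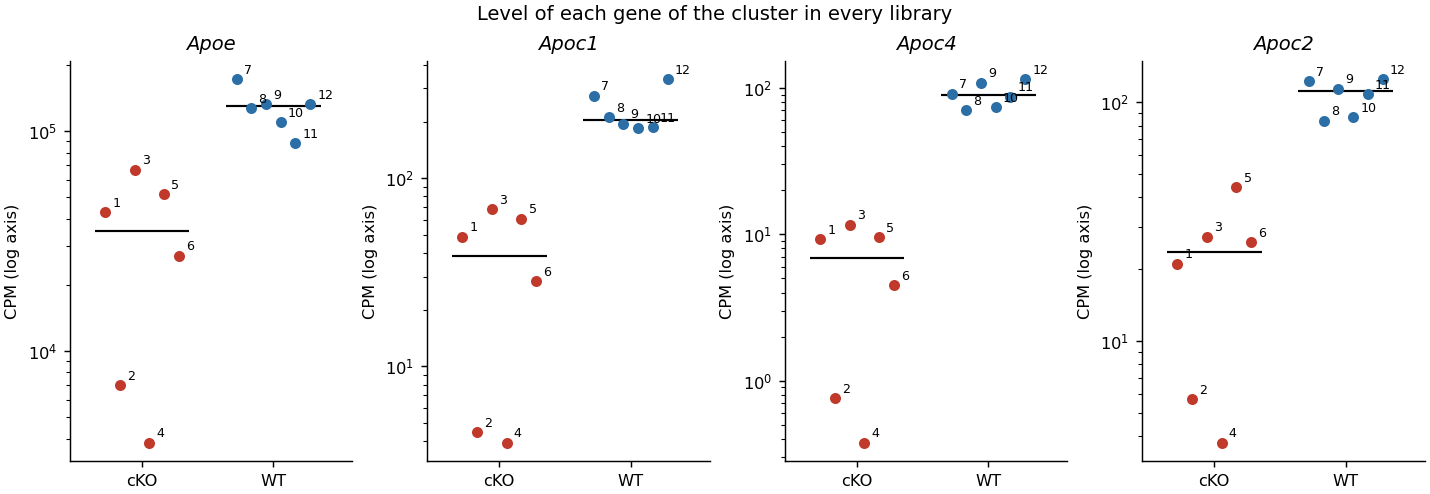
CPM (log axis) of Apoe, Apoc1, Apoc4 and Apoc2 in each library, with cKO on the left and WT on the right, the replicate number beside each point and a line at the group median. In all 4 panels every cKO point lies below every WT point, and cKO 2 and cKO 4 lie lowest.

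Of the 4 genes, 3 were called lower in the edgeR quasi-likelihood fit at an adjusted p under 0.05, Apoe being the other. Calls were made in 5.87% of the 15015 genes tested, 3.43% as lower and 2.44% as higher in cKO. All cKO values were under all WT values in 4 of the 4, and this held for 2.8% of the genes tested, while 1.33% had all cKO values above all WT values. Nothing is read from these counts, since the same contrast was in view when the genes were chosen.

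The fold changes kept their direction in the 22 alternatives of each gene. Over the 12 fits without 1 library, the log2 fold change ran from -2.26 to -1.70 for Apoe, from -2.99 to -2.46 for Apoc1, from -4.22 to -3.67 for Apoc4 and from -2.68 to -2.11 for Apoc2. Without the library labelled cKO 2 alone they were -1.73, -2.46, -3.69 and -2.13 in the same order of genes. Without cKO 1, cKO 2 and cKO 4 together they were -1.37, -2.12, -3.38 and -1.69. By limma-voom with sample weights they were larger, at -2.56, -3.58, -4.97 and -3.12.

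Levels of different genes can be set side by side only per length of transcript. Per kilobase of annotated exon, Apoe averaged 15546 ± 11744 CPM in cKO and 59512 ± 13090 CPM in WT (SD, n = 6 each). Apoc1 followed at 48.1 ± 37.6 in cKO and 310.9 ± 82.1 in WT, then Apoc2 at 26.2 ± 18.5 in cKO and 131.4 ± 21.8 in WT. Apoc4 came last, at 2.37 ± 1.90 in cKO and 35.8 ± 7.04 in WT. In WT the ranges of the 4 genes did not overlap on this scale. In cKO, those of Apoc1 (5.27 to 91.9), Apoc2 (4.59 to 54.4) and Apoc4 (0.149 to 4.58) were closer, and those of Apoc1 and Apoc2 overlapped. Within the same library, Apoc1 stood above Apoc2 in each cKO library except cKO 2, which was not tested. In the library labelled cKO 2, Apoc2 (7.01) stood above Apoc1 (6.00). The exon lengths come from GENCODE M21, which may differ from the annotation behind the count table, so levels per kilobase are approximate.

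The ratio of the other members to Apoe was not the same in the groups, which is given as a description. Per 1000000 Apoe counts of the same library, Apoc4 had 216, 109, 174, 98.6, 185 and 166 counts in cKO 1 to 6, against 530, 555, 816, 669, 986 and 861 counts in WT 7 to 12. Apoc1 had a median of 1033 (637 to 1174) in cKO and 1673 (1465 to 2525) in WT on the same scale. For both genes each cKO ratio lay below each WT ratio. The Apoc2 ratio had a median of 833 (409 to 976) in cKO and 825 (661 to 1224) in WT, and its groups overlapped. Within cKO the low Apoc2 ratios were those of cKO 1 (492) and cKO 3 (409), not those of the libraries with least Apoe.

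**Figure D2:**
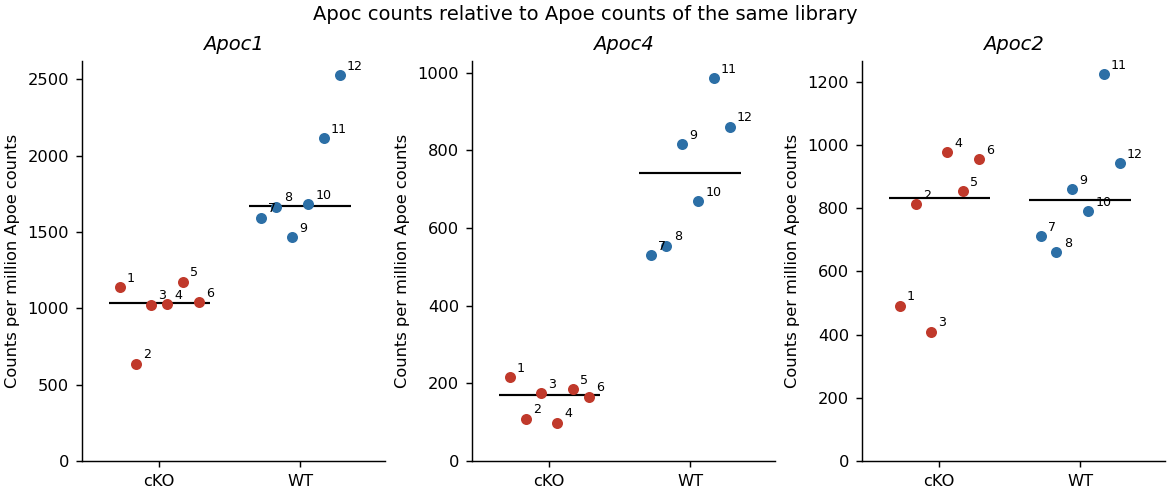
Counts of Apoc1, Apoc4 and Apoc2 per 1000000 Apoe counts of the same library, with cKO on the left, WT on the right and lines at the group medians. The groups are apart for Apoc1 and Apoc4 and overlap for Apoc2, whose medians are 833 in cKO and 825 in WT.

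The spread between libraries was wider in cKO than in WT for all 4 genes, a difference that was not tested. The highest cKO library held 17.5 times the lowest for Apoe, 17.4 times for Apoc1, 30.8 times for Apoc4 and 11.8 times for Apoc2. In WT these ratios were 1.95, 1.82, 1.62 and 1.49. The SD of log2 CPM was 1.40 to 1.997 in cKO, where the median of all tested genes was 0.350, and 0.249 to 0.352 in WT, where it was 0.201. In cKO each of the 4 had a larger SD than at least 99.2% of tested genes, and in WT a larger one than 63.1% to 80.4%.

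The members were chosen on the difference between genotypes, with earlier results of these data known. Their correlations within each group of 6 libraries are therefore given with p-values as a description. The cKO libraries also differ in markers of other cells, which these p-values do not take into account. In cKO, log2 CPM of Apoe correlated with that of Apoc1 (Pearson r = 0.990) and Apoc4 (r = 0.997), and Apoc1 with Apoc4 (r = 0.993). Each of these had an exact permutation p of 0.00139 over 720 pairings and 0.00556 after adjustment over the 12 correlations computed, with Spearman's rho of 1 (exact p = 0.00278, adjusted p = 0.0111). The 3 genes therefore ranked the cKO libraries alike. These p-values do not compare the members with other genes. Within cKO alone, r of genes outside the cluster was not computed, but over all libraries some of them came close to the members. With group means subtracted over the 12 libraries, r with Apoe was 0.978 for Apoc4 and 0.977 for Apoc1. On that measure it was 0.973 for Slamf7, 0.972 for Anxa2 and 0.970 for Rftn1, which lie outside the cluster. That measure rests mostly on the cKO libraries, whose spread is wider. Without cKO 2 and cKO 4, the 2 libraries farthest from the median, r was 0.986, 0.962 and 0.979 (exact permutation p = 0.0417 for each, the smallest that 4 libraries allow).

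Apoc2 in cKO correlated with Apoe (r = 0.956, exact permutation p = 0.0125), Apoc1 (r = 0.957, p = 0.0167) and Apoc4 (r = 0.953, p = 0.0153), each with an adjusted p of 0.0333. Spearman's rho was 0.886 for each of these pairs (exact p = 0.0333, adjusted p = 0.0571). These relations rest on 2 libraries, since r fell to 0.299, 0.362 and 0.186 without the 2 farthest. On CPM in place of log2 CPM none of the 3 passed, with r of 0.805, 0.845 and 0.794 (exact permutation test, adjusted p = 0.102, 0.0967 and 0.102). In WT, where the members moved over a narrow range, only Apoc4 and Apoc2 passed (r = 0.897, exact permutation p = 0.025, adjusted p = 0.0429, rho = 0.943, exact p = 0.0167, adjusted p = 0.050), and r was 0.786 without 2 libraries. This call too was lost on CPM (r = 0.871, exact permutation test, adjusted p = 0.0967). The other WT pairs had r from 0.293 to 0.639 and adjusted p from 0.194 to 0.579 in the exact permutation test. Whether the correlations differ between cKO and WT was not tested.

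Genes next to the cluster had smaller fold changes. Clptm1, a membrane protein gene 6545 bases beyond Apoc2, had a log2 fold change of -0.08 ± 0.09 (SE, edgeR adjusted p = 0.671). Tomm40, a mitochondrial import channel gene 2124 bases from Apoe on the other side, had one of 0.25 ± 0.18 (adjusted p = 0.444). Of 28 other genes of the table within 250 kb, 16 could be tested, with 7 positive and 9 negative log2 fold changes and a median of -0.04, against 0.03 over all genes. Only Exoc3l2 passed, a gene of the exocyst family 175 kb away, at -1.22 ± 0.28 (adjusted p = 0.0229) and no more than 1.48 CPM in any library. Its call ended without cKO 4, WT 8, WT 11 or WT 12, and without cKO 1 and cKO 2 together.

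The other 13 tested neighbours had adjusted p from 0.119 to 0.993 in edgeR. Relb, a subunit of NF-kB, was at -0.11 ± 0.19, and Bcl3, a nuclear partner of NF-kB, at -0.63 ± 0.35. The adhesion receptor genes Nectin2, Pvr and Bcam were at -0.36 ± 0.16, -0.25 ± 0.14 and 0.28 ± 0.21. Bloc1s3, Trappc6a, Ppp1r37, Gemin7, Zfp296, Clasrp, Mark4 and Gm20512 lay between -0.30 and 0.51. Gm20512 is antisense to the edge of Tomm40 and, over a longer stretch, to Nectin2. No strand setting of the counting is given in the sources used here, so reads of these genes may not be separable.

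**Figure D3:**
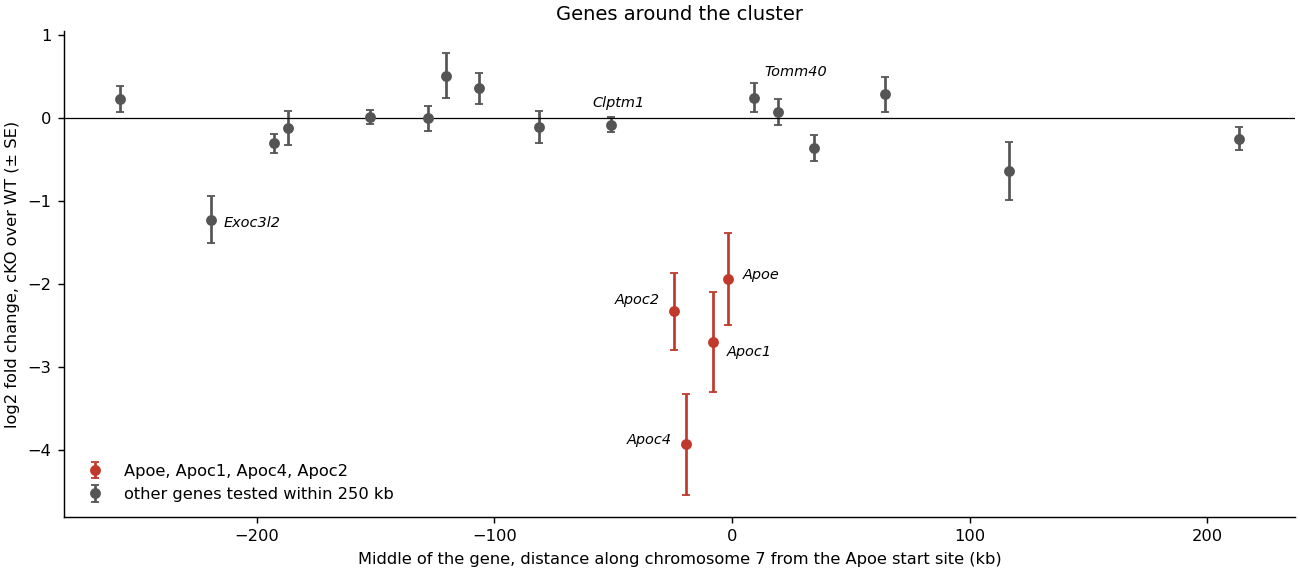
Log2 fold change of cKO over WT (error bars, SE) of the genes tested around the cluster, by the distance in kb of the middle of each gene from the Apoe start site. The 4 members lie between -1.94 and -3.93, Clptm1 and Tomm40 on either side lie near 0, and Exoc3l2 is at -1.22.

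RNA of other cells varied between libraries as well. In cKO 1, 2 and 4 the 12 neuron markers summed to 637.7, 812.6 and 497.9 CPM, against 203.8 to 317.2 CPM in WT, and in cKO 3, 5 and 6 to 304.9, 217.1 and 232.7 CPM. None of the 12 passed between the groups, and none was at 0 in either group. Apoe was lowest in cKO 2 and cKO 4, while cKO 1 had 42851 CPM of Apoe with a neuron sum of 637.7 CPM, and cKO 6 had 27152 CPM with one of 232.7 CPM. The first component of 52 markers of neurons, astrocytes, oligodendrocytes, Schwann, ependymal, endothelial, mural and fibroblast cells was 1.47, 1.84 and 1.46 in cKO 1, 2 and 4, and at most 0.0177 in any other library. With it in the model, the log2 fold changes were -1.36 for Apoe, -2.09 for Apoc1, -3.39 for Apoc4 and -1.72 for Apoc2. Because the component goes in part with the genotype, this fit cannot fully separate them.

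Astrocytes are the other main source of Apoe in this tissue. The 10 astrocyte markers summed to 449 to 718 CPM in cKO and 453 to 529 CPM in WT, none at 0 and none past the test, and cKO 1, 2 and 4 were again the highest (717.7, 712.9 and 638.6 CPM). Gfap stood at 224 to 315 CPM in cKO and 232 to 275 CPM in WT. Markers of border macrophages, a population at the tissue's surfaces that also makes Apoe, summed to 72.7 to 114 CPM in cKO and 181 to 262 CPM in WT. Of these 10 genes, 6 were tested and Siglec1 and Ms4a7 were lower in cKO (edgeR adjusted p = 0.000404 and 0.0346). Stab1, the most abundant of them, stood at 44.0 to 106 CPM in cKO and 104 to 138 CPM in WT (adjusted p = 0.0640, edgeR). Of the low genes, Cbr2 stood at 0.0377 to 0.235 CPM in cKO and 0.311 to 1.24 CPM in WT, with no overlap, and F13a1 at 0.0940 to 0.278 CPM in cKO and 0.165 to 0.714 CPM in WT. Mrc1 stood at 0.395 to 0.834 CPM in cKO and 0.381 to 1.14 CPM in WT, Cd163 was at most 0.0940 CPM in cKO and 0.0522 CPM in WT, and Lyve1 was at 0 in cKO and at most 0.0518 CPM in WT. The part of border macrophages in the level of the cluster was not tested. In bulk libraries, fewer cells of a type and less RNA per cell cannot be told apart.

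Of the 8 monocyte markers, 4 were tested and none passed. Their sum, 155 to 1593 CPM in cKO and 229 to 695 CPM in WT, was nearly all Fn1, while Ccr2 was at most 0.477 CPM in cKO and 0.670 CPM in WT. Relative to the mean of the 10 microglia markers of each library, the difference in mean log2 CPM was -2.82 for Apoe, -3.68 for Apoc1, -4.97 for Apoc4 and -3.06 for Apoc2. Without that step the same differences were -2.51, -3.37, -4.66 and -2.75. Of the microglia markers, 1 of 10 passed, Siglech (1.72 ± 0.25, edgeR adjusted p = 0.00119).

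**Figure D4:**
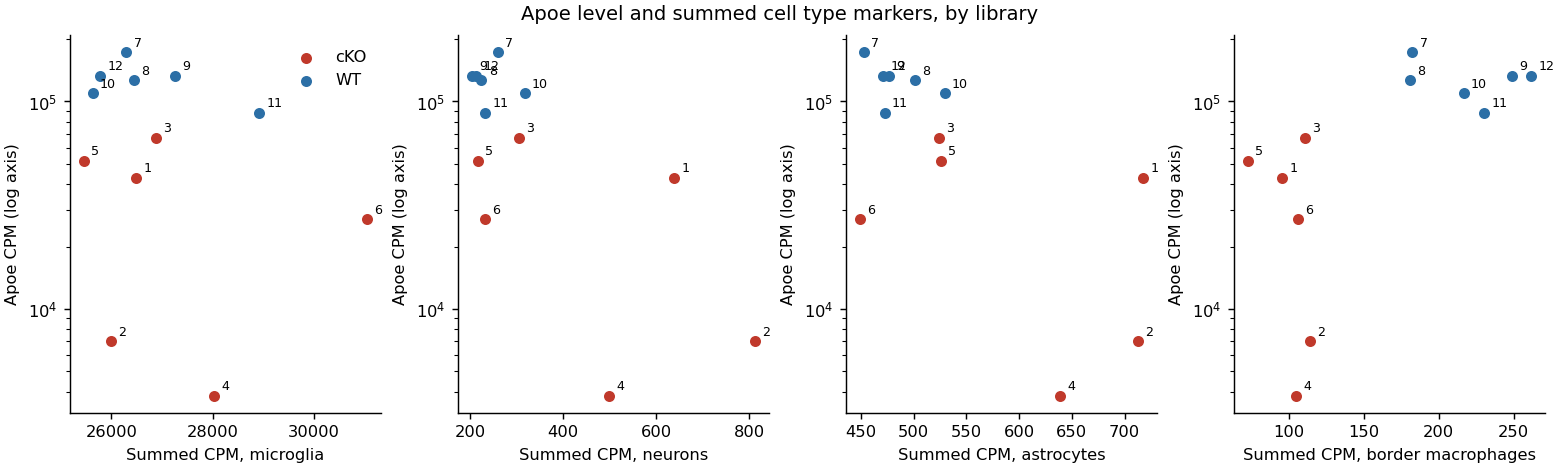
Apoe CPM (log axis) against the summed CPM of microglia, neuron, astrocyte and border macrophage markers in each library, with replicate numbers. WT points lie above all cKO points at like sums of microglia markers, cKO 1, 2 and 4 have the highest neuron sums, and the 2 groups do not overlap in border macrophage sums. The border macrophage sums are mostly Stab1, Ms4a7 and Siglec1.

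Of the wider pathway, 5 lists were set beside the cluster. Their 134 genes cover lipoprotein uptake and processing, LXR, other apolipoproteins and disease genes linked to Trem2. Of these, 105 genes were tested and 13 (12.4%) passed in edgeR, against 5.87% of all genes tested. The lists were written with earlier results of these data known, so nothing is read from this share. The number passing ran from 8 to 29 over the 12 fits without 1 library, with 8 without cKO 1, 22 without cKO 6 and 29 without cKO 5.

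Among lipoprotein receptors and their regulators, 26 of 30 were tested, 2 were lower, 1 was higher and 23 did not pass, with a median of -0.21. Sorl1, a sorting receptor that binds Apoe, fell by 1.30 ± 0.22 (SE, adjusted p = 0.00391), to 46.8 ± 17.6 CPM in cKO against 115 ± 18.3 CPM in WT. Mylip, a ubiquitin ligase and LXR target that lowers lipoprotein uptake, fell by 0.84 ± 0.15 (adjusted p = 0.00630). Ldlrad4 rose by 0.38 ± 0.10 (adjusted p = 0.0399), a call that held when cKO 3 or cKO 5 was left out, but for none of the other 10 libraries, and was lost with the marker component and without cKO 1 and cKO 2. The scavenger receptor gene Olr1 (1.499 ± 0.42, adjusted p = 0.0502) and Lrp5 (-0.47 ± 0.13, adjusted p = 0.0502) did not pass. The number called was 10 without cKO 5 and 5 without cKO 6.

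In the lipoprotein lipase axis, 15 of 19 genes were tested and 3 were lower, with a median of -0.25 and 12 that did not pass. Apobr, a receptor for lipoproteins that carry apolipoprotein B, fell by 0.71 ± 0.08 (adjusted p = 0.000285). The lysosomal phospholipase Pla2g15 fell by 0.48 ± 0.09 (adjusted p = 0.00626). Furin, a protease that cuts many secreted precursors, fell by 0.46 ± 0.09 (adjusted p = 0.0115), a call lost without cKO 1 and cKO 2 together. Lpl, the lipase that Apoc2 activates, stood at 193 ± 137 CPM in cKO and 228 ± 69.8 CPM in WT and did not pass (-0.25 ± 0.45, adjusted p = 0.805, edgeR), nor did its inhibitor Angptl4 (-1.18 ± 0.39, adjusted p = 0.0879) or Pltp, which moves phospholipid between particles (-0.62 ± 0.22, adjusted p = 0.113). Without cKO 5 the count was 5.

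All 32 genes of the LXR and cholesterol efflux list were tested, 3 were lower and 29 did not pass, with a median of -0.04. Rxra, the partner with which LXR binds DNA, fell by 0.59 ± 0.11 (adjusted p = 0.00769), to 204 ± 33.7 CPM in cKO against 306 ± 20.6 CPM in WT. This call was lost without cKO 1, 2 and 4 together. Arl4c, a small GTPase and LXR target, fell by 0.66 ± 0.12 (adjusted p = 0.00473). Soat1, which makes cholesterol esters, fell by 0.77 ± 0.21 (adjusted p = 0.0496) and passed when cKO 3, 5 or 6 was left out, for none of the other 9 libraries, and neither with RLE scaling nor with the marker component.

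The LXR genes themselves did not pass. Nr1h2 stood at 103 ± 8.28 CPM in cKO and 104 ± 13.3 CPM in WT (-0.02 ± 0.10, adjusted p = 0.914), and Nr1h3 at 6.69 ± 3.08 CPM in cKO and 6.87 ± 1.31 CPM in WT (-0.04 ± 0.28, adjusted p = 0.952, edgeR). The sterol exporters Abca1 (-0.95 ± 0.27, adjusted p = 0.0565) and Abcg1 (-0.93 ± 0.28, adjusted p = 0.0643) did not pass. Other genes of the list were level or higher and did not pass either. Srebf1 was at -0.01 ± 0.09, Lpcat3 at -0.03 ± 0.11, Scd1 at 0.79 ± 0.25 and Abcg4 at 1.09 ± 0.33. Over the whole list, 11 log2 fold changes were positive and 21 negative. The number called in this list was 8 without cKO 5 and 6 without cKO 3 or without cKO 6.

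Of 27 other apolipoprotein and lipoprotein-bound genes, most were too low to test. The 7 tested had a median of -0.37, 2 were lower and 5 did not pass. Saa3, an acute-phase apolipoprotein, fell by 3.14 ± 0.83 (adjusted p = 0.0428), but passed only in the fits without cKO 5, without cKO 6 or without WT 10 of the 12 that leave out 1 library. Pon3, a lactonase of lipoproteins, fell by 0.54 ± 0.12 (adjusted p = 0.0194), a call lost without cKO 1. Both calls also ended with the marker component in the model and without cKO 1, 2 and 4 together. Without cKO 5 the count was 4, and without cKO 1 it was 0. Clu (0.18 ± 0.13, adjusted p = 0.464), also called apolipoprotein J, and Apod (-0.80 ± 0.32, adjusted p = 0.150) did not pass in edgeR.

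Apoe is also counted among the genes that microglia raise in disease through the lipid receptor Trem2. Of 27 such genes tested, 2 were lower and 25 did not pass, with a median of -0.29 and 23 negative log2 fold changes. Gpnmb, a phagocyte glycoprotein, fell by 2.88 ± 0.55 (adjusted p = 0.00841), and the lysosomal protein gene Cd68 by 0.93 ± 0.24 (adjusted p = 0.0361). Cd68 passed without cKO 3, 5 or 6 and in none of the other 9 fits without 1 library, and both calls ended with the marker component. Trem2 stood at 1397 ± 389 CPM in cKO and 1797 ± 255 CPM in WT and did not pass (-0.36 ± 0.18, adjusted p = 0.229, edgeR). The list's count was 4 without cKO 6 and 1 without cKO 1, cKO 2, cKO 4 or any 1 of the WT libraries.

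**Figure D5:**
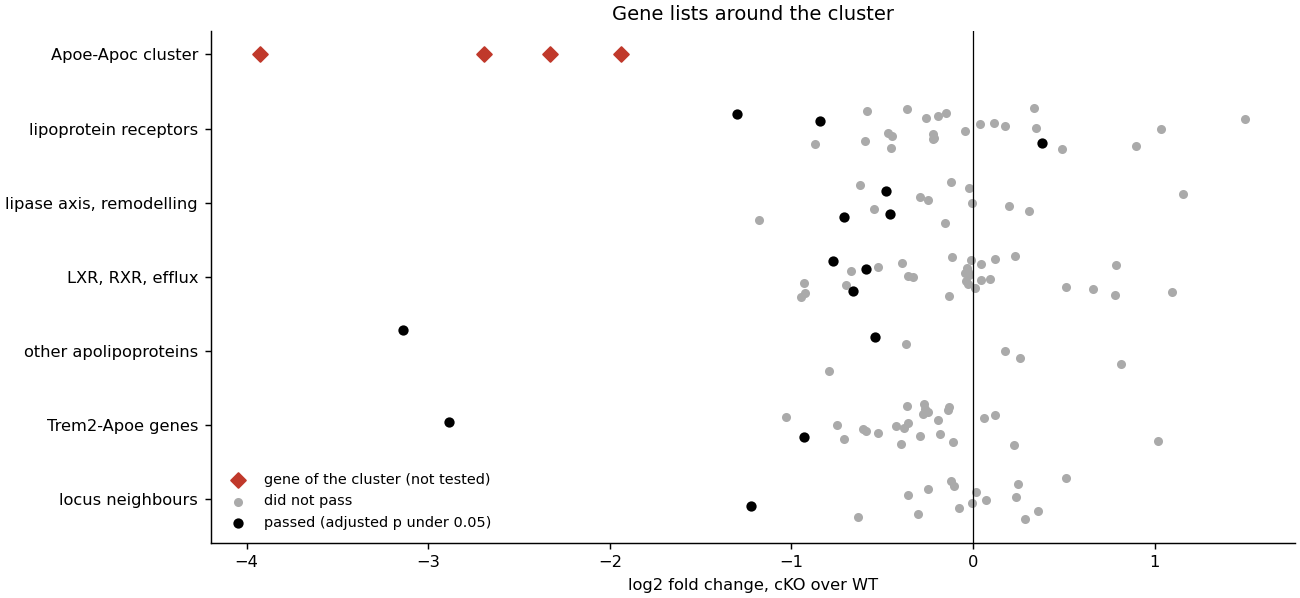
Log2 fold change of cKO over WT of the 4 cluster genes (red diamonds) and of each tested gene of the 5 pathway lists and the locus. Black points are genes that passed at an adjusted p under 0.05 and grey points the rest. The diamonds are marked as not tested because calls of the cluster genes are not read as results. The cluster genes lie from -3.93 to -1.94, and of the other genes shown Saa3 (-3.14) and Gpnmb (-2.88) lie in that range.

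The genes whose log2 CPM followed each member most closely over the 12 libraries were sought among 9583 genes that averaged 5 CPM or more, by Pearson r, as a description. For Apoe they were Rftn1 (0.973), a lipid raft protein gene, Tmem37 (0.966), Cd300ld (0.966), Tmem205 (0.965) and Metrnl (0.961). Only Apoc1 (0.987) was closer to Apoe than all of these. For Apoc1 the nearest were Tmem120a (0.980), Mpp1 (0.973), Ms4a7 (0.973), Metrnl (0.971) and Dnase2a (0.969). Apoc4 was followed by Dnase2a (0.981), a lysosomal DNase gene, Tnfsf12 (0.973), Tst (0.973), Parvb (0.973) and Lrrc27 (0.972). Apoc2 was followed by P2rx4 (0.983), an ATP-gated channel gene, Metrnl (0.977), Dnase2a (0.971), Loxl3 (0.968) and Ninj1 (0.965). The points share libraries and the genotype difference, which a correlation over both groups contains.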

How the data were processed

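The data used were the raw counts that the authors deposited for 39017 Ensembl gene IDs in 12 libraries. Of the IDs, 37693 matched GENCODE M21 (mm10), used here for symbols, positions and exon lengths. Per the submitters' processing notes, bcl2fastq 2.17, FastQC, Trimmomatic and the build mm10 were used. The sources used here do not name the aligner, the counting tool, its strand setting or the annotation release. Per the labels' protocols, the library kit enriched mRNA and kept strand.

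Genes were filtered with filterByExpr, which left 15015, scaled by TMM and tested by robust quasi-likelihood F tests (edgeR 4.0.16, R 4.3.3), with p adjusted by Benjamini-Hochberg over all genes at 0.05. The code was tested on simulated data. Each SE was taken as the absolute log2 fold change divided by the root of F. Log2 CPM used a prior count of 2. Correlations used all 720 pairings (two-sided). No 2 libraries were duplicates (lowest chi-square per degree of freedom 24.4). Over all libraries, 3 counts are at least 0.114 CPM of the library total, and this covers counting error only.

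Members, lists and most alternatives were chosen with earlier results of these data known, and the fit without cKO 1, 2 and 4 and the values relative to microglia markers after seeing the data. Named genes are the members, Kdm6a, called list genes with up to 6 of smallest p, tested neighbours and the 5 most alike per member. Nr1h2, Nr1h3, Srebf1, Lpcat3, Scd1, Abcg4, Lpl, Angptl4, Pltp, Clu, Apod and Trem2 were added after their values were seen. One gene of the receptor list is not reported here. Alternatives used limma 3.58.1 and DESeq2 1.42.0.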

Additional observations from a re-analysis of the deposited data

Results flagged for a closer look

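Among 38 groups of 6 libraries checked (the 4 members, Kdm6a and the 14 list and neighbour genes that passed, in cKO and in WT), 4 held a library whose distance to the nearest other exceeded 0.625 of the range. Chance alone flags about 1 group in 20. None of the 4 was a member of the cluster or Kdm6a. Gpnmb was 1430 CPM in cKO 3, with 489 CPM in the next cKO library. Arl4c was 161 CPM in cKO 1, with 186 CPM in the next. Saa3 was 941 CPM in WT 9, with 386 CPM in the next WT library, and Pon3 77.2 CPM in WT 11, with 59.4 CPM in the next.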

How the results depend on the processing

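No paired analysis was possible because cKO and WT libraries share no replicate number. The log2 fold change of each member kept its direction and stayed within 1 SD of libraries under its 22 alternatives, an SD that is wide because of the cKO libraries. The values ran from -2.82 to -1.36 for Apoe, -3.68 to -2.09 for Apoc1, -4.97 to -3.38 for Apoc4 and -3.12 to -1.69 for Apoc2. The lowest values of Apoe and Apoc1 are differences in mean log2 CPM relative to microglia markers, not edgeR fold changes. Without the markers that measure already gave -2.51 and -3.37. The number of members called was 3, and 2 to 4 over the alternatives. The number of genes called (882) was 1843 by DESeq2, 4663 by limma-voom with sample weights, 416 without cKO 1 and cKO 2, 557 without cKO 1, 2 and 4, and 460 to 2818 without 1 library (2818 without cKO 5). For list genes called (13) these were 29, 52, 8 and 13, and 8 to 29. For locus neighbours called (1) they were 1, 8, 0 and 0, and 0 to 3, with 2 under the marker component and 0 at a mean of at least 5 CPM. With CPM in place of log2 CPM, r with Apoc2 in cKO was 0.805 (Apoe), 0.845 (Apoc1) and 0.794 (Apoc4), and Apoc4 with Apoc2 in WT 0.871, none passing. Without the 2 farthest libraries, where 4 points remain, r in cKO was 0.986 (Apoe, Apoc1), 0.962 (Apoe, Apoc4), 0.979 (Apoc1, Apoc4), 0.299, 0.362 and 0.186 (Apoc2 with Apoe, Apoc1 and Apoc4). In WT it was 0.786 for Apoc4 and Apoc2, and turned negative for Apoc1 with Apoc4 (-0.25) and with Apoc2 (-0.37). Per kilobase of the longest transcript, WT levels were 90366 for Apoe, 435 for Apoc1 and 43.4 for Apoc4. The cause was not tested. Depth limits Apoc4 most, with as few as 10 counts in a cKO library.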

Other observations

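After the group means were subtracted, so that the genotype difference no longer counts, the genes that followed Apoe most closely over the 12 libraries were Slamf7, an immune receptor gene (Pearson r = 0.973), Anxa2, a membrane-binding annexin gene (0.972), Rftn1 (0.970), the lysozyme gene Lyz1 (0.965) and Cd300ld (0.959). Apoc4 (0.978) and Apoc1 (0.977) were closer to Apoe than any of these, and Apoc2 (0.937) ranked 14. Of the 5 genes, none passed between cKO and WT (edgeR adjusted p from 0.139 to 0.498), and Slamf7 (0.66 ± 0.35) and Lyz1 (0.81 ± 0.64) had positive log2 fold changes. Anxa2 was also among the nearest 5 of Apoc1 (0.968), Apoc4 (0.957) and Apoc2 (0.959). The SD of log2 CPM of Apoe was 1.69 in cKO and 0.321 in WT, so these r values rest mostly on the cKO libraries. Within WT alone, r with Apoe was 0.622 for Apoc1, 0.293 for Apoc4 and 0.399 for Apoc2.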
